A study of Homo sapiens with 6 samples.

Results

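CADPS2, MCTP1 and 8 further genes of proteins with a C2 domain were followed in AGS, a long-established human gastric carcinoma cell line. Cells of this line were given celecoxib, an inhibitor of cyclooxygenase-2, or kept as control. The 10 genes (CADPS, CADPS2, MCTP1, MCTP2, SYT1, SYT7, SYTL2, UNC13B, UNC13D and ESYT2) are 10 of 18417 genes that could be named on the array. CADPS2 and MCTP1 were picked because they passed the test of celecoxib against control in these same 6 arrays, and the others because they are relatives or act at the same step. The differences of the 10 genes are therefore given as a description, with no test. Each gene was read by the transcript cluster (the set of probes summarised for 1 locus) whose annotation names it alone. Every one of the 10 genes had 1 such cluster, so the rule of keeping the brightest cluster made no choice.

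The cells were grown for 48 h and then kept for 24 h either with celecoxib at 20 µM, taken from a stock in DMSO, or as the labelled untreated control. The labels do not say if DMSO was added to control wells. Each group had 3 arrays, called biological replicates in the labels, which also mention pooling after the RNA quality check. Errors and p-values therefore cover the spread of these samples alone, and that spread may be technical. Every array received product from 250 ng of total RNA of the same line, and no other genotype or dose entered the comparison.

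Regulated secretion releases the content of a vesicle when calcium rises. The CAPS proteins, encoded by CADPS and CADPS2, prime dense-core vesicles, and the Munc13 proteins, encoded by the UNC13 genes, prime vesicles by opening syntaxin for SNARE assembly. The C2 domain, which binds phospholipid and in many proteins calcium, occurs in all of these families. Several synaptotagmins, though not all, are calcium sensors of fusion, and synaptotagmin-like proteins bind Rab27 on granules. MCTP proteins carry several C2 domains and sit in membranes of the endoplasmic reticulum and endosomes. Extended synaptotagmins tether the endoplasmic reticulum to the plasma membrane.

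Among the promoters at hand, those of MCTP1 and its paralog MCTP2 are shown because MCTP1 had the largest difference of the 10 genes and each of the pair has alternative starts. RefSeq promoters (GRCh38.p14, 250 bases before to 50 bases after a start) were matched for 6 of the 10 genes, 10 promoters in all. None was at hand for CADPS2, SYT7, SYTL2 or UNC13D, so these were not examined. Capitals mark matches on either strand to any of 5 motifs. These are CACGTG (an E-box), TGACTCA (the AP-1 site), TGACGTCA (the cyclic AMP response element), GCGTG (the core of the xenobiotic response element) and TGACNNNGC (the antioxidant response element). The start of MCTP1 called upstream here lies at chr5:95285045-95285344 on the minus strand, and the downstream one at chr5:95081596-95081895, 203.4 kb away. Those of MCTP2 lie at chr15:94231311-94231610 and, 124.4 kb away, at chr15:94355680-94355979, on the plus strand.
MCTP1 upstream start: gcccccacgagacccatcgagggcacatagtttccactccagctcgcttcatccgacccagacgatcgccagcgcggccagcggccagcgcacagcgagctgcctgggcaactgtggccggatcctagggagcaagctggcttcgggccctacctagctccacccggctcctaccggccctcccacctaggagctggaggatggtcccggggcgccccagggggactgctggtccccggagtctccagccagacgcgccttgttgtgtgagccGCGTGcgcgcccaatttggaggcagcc
MCTP1 downstream start: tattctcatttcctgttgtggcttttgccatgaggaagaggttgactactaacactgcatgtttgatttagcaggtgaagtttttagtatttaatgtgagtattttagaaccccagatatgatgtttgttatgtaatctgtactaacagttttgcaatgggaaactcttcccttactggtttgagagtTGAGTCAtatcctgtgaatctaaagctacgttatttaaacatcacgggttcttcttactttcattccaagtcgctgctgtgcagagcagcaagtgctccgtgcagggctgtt
MCTP2 upstream start: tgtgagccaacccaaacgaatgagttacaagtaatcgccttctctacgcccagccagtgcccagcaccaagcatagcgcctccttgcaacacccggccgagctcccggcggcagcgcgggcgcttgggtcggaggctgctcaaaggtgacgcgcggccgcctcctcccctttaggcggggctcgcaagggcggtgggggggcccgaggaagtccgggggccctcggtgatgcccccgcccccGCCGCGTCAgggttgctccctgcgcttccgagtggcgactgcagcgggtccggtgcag
MCTP2 downstream start: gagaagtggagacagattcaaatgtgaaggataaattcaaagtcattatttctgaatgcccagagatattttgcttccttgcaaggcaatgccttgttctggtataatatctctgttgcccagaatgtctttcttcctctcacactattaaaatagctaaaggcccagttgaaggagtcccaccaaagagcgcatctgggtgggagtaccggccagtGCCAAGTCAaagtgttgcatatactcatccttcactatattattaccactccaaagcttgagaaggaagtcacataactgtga

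The paralogs share an arrangement of a GC-rich upstream and an AT-rich downstream promoter. GC content was 69% and 39.7% at the upstream and downstream starts of MCTP1, and 70% and 42% at those of MCTP2, against a median of 58.7% over 35116 promoters. UNC13B had a GC content of 67%, 38.7% and 55% at its starts 1, 2 and 3. A GC-rich upstream and an AT-rich downstream promoter are therefore not particular to the MCTP genes. MCTP1 and MCTP2 differed in their motifs. The downstream promoter of MCTP1 held 1 AP-1 match, read as TGAGTCA on the printed strand at position -62 from the start, a motif found in 4.95% of all promoters. Its upstream promoter held 1 GCGTG, at position 23, a motif found in 36.5% of promoters. Each MCTP2 promoter held 1 match to the antioxidant response element, at -8 and -33, which 13.3% of promoters hold.

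Among the other members, the ESYT2 promoter held 1 TGACGTCA (1.85% of promoters) and 4 GCGTG, and 2 of the 3 UNC13B promoters held 1 GCGTG each. The single CADPS and SYT1 promoters held none of the 5 motifs, and CACGTG (7.26% of promoters) was in none of the 10 promoters. No match overlapped another. These are matches of letters only. The array gives 1 value per gene, so transcripts from the alternative starts were not separated.

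All values below are log2 expression values as deposited. The median of all transcript clusters was 6.785, and a value can be read against it as a place on the scale of the array, since levels of different probes are not comparable in quantity. Medians of the 6 arrays lay between 6.75 and 6.82, and correlations between arrays across clusters between 0.985 and 0.996. Celecoxib replicate 1 had the lowest mean correlation with the others (0.988). The median of 195 small nuclear and nucleolar RNAs was 6.98 to 7.13 in the controls and 7.17 to 7.49 with celecoxib, highest in replicate 1, so it moved with the groups. All 8 epithelial markers fixed as a list were above the array median, with list means of 10.8 to 10.9 in controls and 10.6 to 10.8 with celecoxib. Of other cell types, 0 of 4 endothelial, 1 of 5 fibroblast, 2 of 5 immune and 1 of 5 neuroendocrine markers were above it. The neuroendocrine list mean was 6.62 to 6.74 in controls and 6.46 to 6.66 with celecoxib, with CHGA at 5.79 and SYP at 6.01, below the array median, and INSM1 at 8.20, above it. INSM1 went from 8.28 to 8.13, with groups that did not overlap, and 7.95% of all genes were lower in this way. Among the markers of other cell types, KRT18 (-0.21), COL1A1 (-0.12) and PDGFRB (-0.13) were also lower without overlap. LYZ (0.06) was higher without overlap, as were 11.1% of all genes. The part of these marker lists in the results below was not tested. In RNA from a whole culture, fewer cells with a transcript and less transcript per cell cannot be told apart.

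CADPS2, the CAPS protein of wider tissue range, was higher in every celecoxib array. Its log2 values were 8.74, 8.74 and 8.63 in control replicates 1, 2 and 3, and 9.21, 9.34 and 9.29 in the celecoxib replicates. The groups were separated by 0.47, while the values within a group spanned 0.10 and 0.13. The mean rose from 8.70 ± 0.06 to 9.28 ± 0.06 (SD, n = 3), a difference of 0.58 ± 0.07 (SE) or 1.49-fold, with a 95% interval from 0.41 to 0.74. CADPS, the paralog known from brain and endocrine cells, stood low on the array. It read 5.18, 5.11 and 5.07 in the controls and 5.22, 5.04 and 4.63 with celecoxib. Celecoxib replicate 3 was the lowest of the 6 values and the other celecoxib arrays lay around the controls. The difference of -0.16 ± 0.14 (interval from -0.47 to 0.16) became 0.01 without that array, so 1 array set both its size and its sign. Its mean of 5.04 was among the dimmest 20% of genes (under 5.63), and signal over background could not be set.

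MCTP1 had the largest difference of the 10 genes, rank 13 among the rises of all 18417. Its log2 values were 8.02, 7.92 and 8.11 in the controls and 8.77, 8.71 and 8.63 with celecoxib. The lowest celecoxib value lay 0.51 above the highest control, against a span of 0.20 within the controls and 0.14 within the treated arrays. The mean went from 8.02 ± 0.10 to 8.70 ± 0.07 (SD, n = 3), a difference of 0.68 ± 0.08 (SE) or 1.61-fold, with a 95% interval from 0.50 to 0.87. MCTP2, its paralog, read 7.70, 7.66 and 7.75 in the controls and 7.75, 7.85 and 7.83 with celecoxib. Control replicate 3 was above celecoxib replicate 1 by less than 2 decimals show, so the groups overlapped. The difference was 0.10 ± 0.07, with an interval from -0.05 to 0.26.

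**Figure D1:**
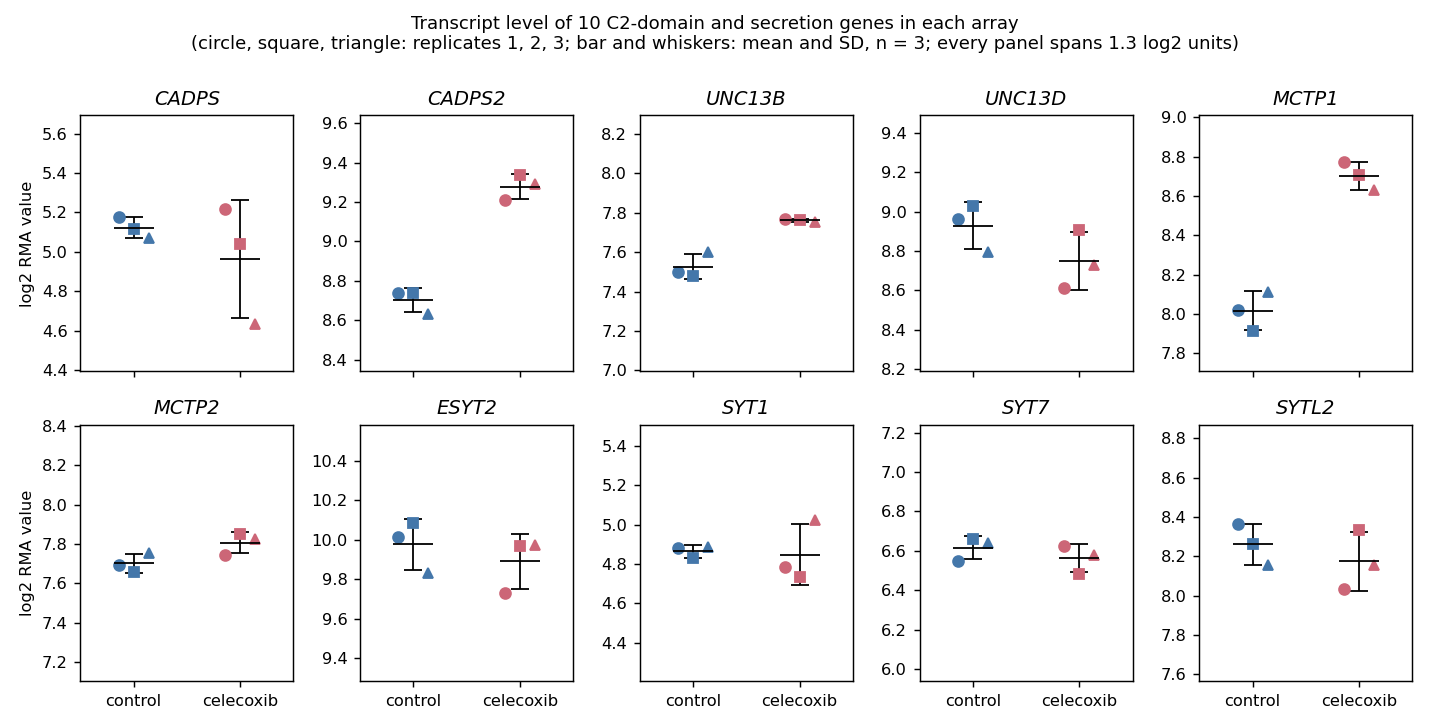
Log2 RMA value (vertical axis) of each of the 10 genes in the 3 control and 3 celecoxib arrays, with circle, square and triangle for replicates 1, 2 and 3 and bars for mean and SD. The groups are apart in CADPS2, MCTP1 and UNC13B and overlap in the other 7 genes.

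UNC13B encodes Munc13-2, a priming factor with a MUN domain like that of the CAPS proteins. It read 7.50, 7.48 and 7.60 in the controls and 7.77, 7.76 and 7.75 with celecoxib. All celecoxib values lay above all controls, by 0.15, and they spanned only 0.02. The difference was 0.24 ± 0.07 (SE, n = 3 per group), a fold of 1.18, with an interval from 0.08 to 0.39. UNC13D encodes Munc13-4, a Rab27 partner needed for granule release in blood cells. It read 8.96, 9.03 and 8.80 in the controls and 8.61, 8.91 and 8.73 with celecoxib. The groups overlapped, since celecoxib replicate 2 lay above control replicate 3, and the difference was -0.18 ± 0.10 with an interval from -0.41 to 0.05.

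SYT1 and SYT7, the synaptotagmins among the members, showed differences near 0. SYT1, the sensor of fast release in neurons, read 4.88, 4.83 and 4.89 in the controls and 4.78, 4.73 and 5.02 with celecoxib. These values were low on the array, and the celecoxib values lay on either side of the controls, with a difference of -0.02 ± 0.09. SYT7, a slower sensor with high calcium affinity, read 6.55, 6.66 and 6.64 in the controls and 6.63, 6.48 and 6.58 with celecoxib. The groups overlapped, with a difference of -0.05 ± 0.07 and an interval from -0.22 to 0.12.

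SYTL2 (Slp2-a, a Rab27 effector of granule docking) and ESYT2 (a tether of endoplasmic reticulum and plasma membrane) shared a pattern across arrays with UNC13D. SYTL2 read 8.36, 8.26 and 8.16 in the controls and 8.03, 8.33 and 8.15 with celecoxib, a difference of -0.09 ± 0.10. ESYT2 read 10.0, 10.1 and 9.83 in the controls and 9.73, 9.97 and 9.97 with celecoxib, a difference of -0.09 ± 0.10. Celecoxib replicate 1 was the lowest of the 6 arrays for SYTL2, ESYT2 and UNC13D, and control replicate 3 the lowest control for all of them. This is not particular to these genes, since STX2 and STXBP5, listed among the SNAREs and their regulators, showed it too. The same arrays had the highest scores (39.8 and 16.8) on the first principal component of all clusters, which held 40.4% of the variance. Without celecoxib replicate 1 the differences were -0.02 for SYTL2, -0.01 for ESYT2 and -0.11 for UNC13D.

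**Figure D2:**
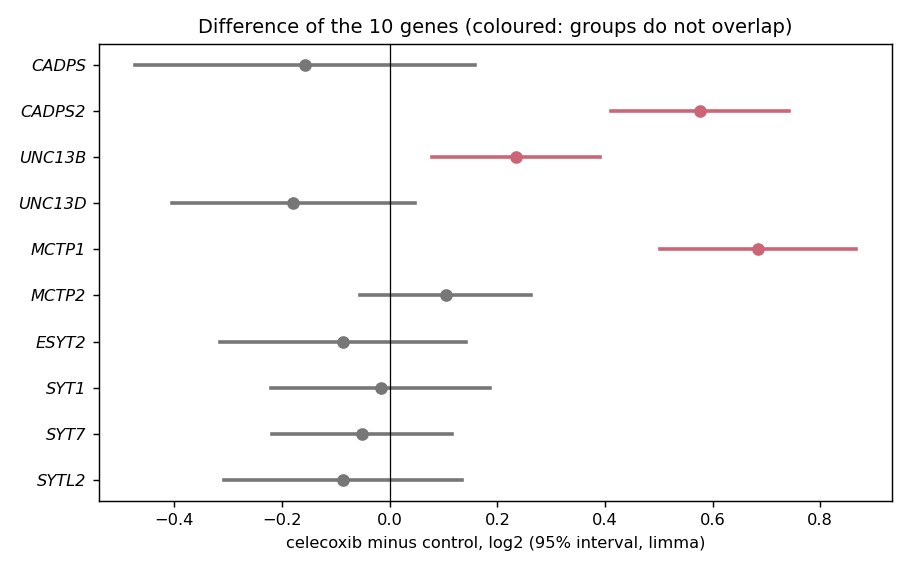
Celecoxib minus control on the log2 scale (horizontal axis) for each gene, as points with 95% intervals from limma, coloured where the 3 values of each group do not overlap. MCTP1 (0.68) and CADPS2 (0.58) lie furthest from 0, followed by UNC13B (0.24).

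In all, 4 of the 10 genes were higher and 6 lower with celecoxib, and the median of the 10 differences was -0.03 against -0.01 over all genes. Of the 10, 2 passed limma's adjusted p of 0.05, both higher, which is what picked them. The background is 0.141% of all 18417 genes (26) in either direction and 0.076% higher (14). The groups did not overlap with higher values in 3 of the 10 genes, where 11.1% of all genes did so, and with lower values in none of the 10, where 7.95% did. Nothing is read from these counts, since the members were chosen on this contrast.

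The differences of CADPS2 and MCTP1 lay between 0.54 and 0.73 across ways of processing, but their calls did not hold throughout. Without 1 array at a time, the difference of CADPS2 ran from 0.54 to 0.61 and that of MCTP1 from 0.63 to 0.73. Leaving out any 1 of the 6 arrays ended both calls, with the limma adjusted p between 0.072 and 0.26 for CADPS2 and between 0.083 and 0.24 for MCTP1. With that small RNA median of each array as a covariate the differences were 0.65 and 0.57, again not past the threshold (limma adjusted p = 0.19 and 0.23). Both had then moved by more than the pooled SD within groups (0.06 and 0.09), and CADPS2 stood above MCTP1. UNC13B ran from 0.21 to 0.27 when arrays were left out.

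**Figure D3:**
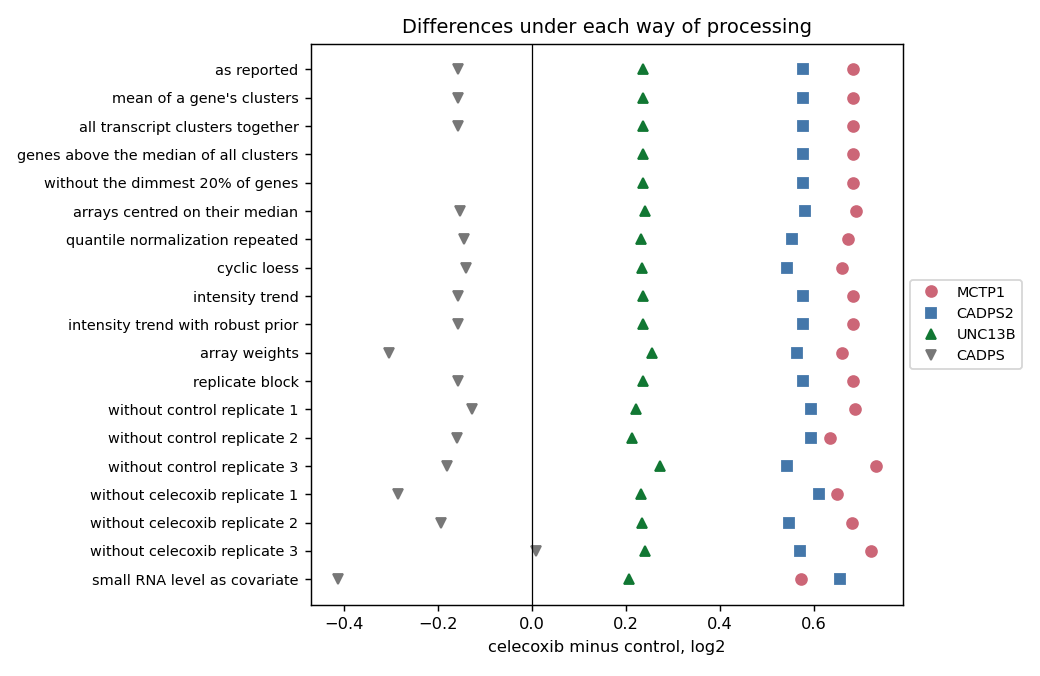
Celecoxib minus control on the log2 scale (horizontal axis) for 4 genes under each way of processing or set of arrays (rows). MCTP1 and CADPS2 lie between 0.54 and 0.73 in every row, UNC13B between 0.21 and 0.27, and CADPS moves from -0.41 to 0.01.

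The rest of the machinery was read from 5 lists of 131 genes, 124 of them measured. None of the 124 passed limma's adjusted p of 0.05 over all genes, and the smallest adjusted p was 0.27. At an unadjusted p under 0.05, 10 were higher (8.06%) and 1 was lower (0.806%), against 6.87% and 4.44% of all genes. Groups did not overlap in 21 with higher (16.9%) and 7 with lower values (5.65%), against 11.1% and 7.95% of all genes. Of the 124, 74 were above the array median, as were 10873 of all 18417 genes. Among all genes, groups were apart with higher values in 15.8% of those above it and 4.28% of those below it. In the 5 lists these shares ran from 0% to 44.4% above it and from 0% to 16.7% below it. They rest on 4 to 30 genes each. The part of signal level was not tested. The lists were chosen with earlier results known, and nothing is read from these counts.

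Vesicle tethers and granule transport were represented by Rab3, Rab27, their effectors and the exocyst. Of 27 measured genes, 19 were higher (70.4%, against 47.9% of all genes), with a median of 0.04. Groups did not overlap in 8 with higher (29.6%) and 1 with lower values (3.70%), against 11.1% and 7.95% of all genes. Of the 21 genes above the array median, 33.3% were higher without overlap, against 15.8% of all genes above it. Nothing is read from these counts. EXPH5, a Rab27 effector also called Slac2-b, stood at 0.28 ± 0.07 (SE, limma adjusted p = 0.27), RAB3IP, an exchange factor for Rab8, at 0.25 ± 0.08 (0.33), and the exocyst subunits EXOC6 and EXOC2 at 0.21 ± 0.07 (0.36) and 0.16 ± 0.07 (0.43). EXPH5 read 8.07, 8.03 and 7.97 in the controls and 8.39, 8.28 and 8.23 with celecoxib. For these 4 genes the groups were apart, and none passed the test.

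The SNAREs and their regulators form the fusion machine that CAPS and Munc13 proteins prepare. Of 34 measured genes, 21 were higher (61.8%, against 47.9% of all genes), with a median of 0.05. Groups did not overlap in 5 (14.7%), all with higher values, against 11.1% higher and 7.95% lower over all genes. Of the 30 genes above the array median, 16.7% were higher without overlap, near the 15.8% of all genes above it. STXBP3 (Munc18-3, a partner of syntaxins) stood at 0.29 ± 0.08 (SE, limma adjusted p = 0.29), and NSF and NAPG, which take used SNARE complexes apart, at 0.24 ± 0.10 (0.41) and 0.17 ± 0.08 (0.46). STX8, an endosomal syntaxin, stood at 0.29 ± 0.14 (0.47), where celecoxib replicate 1 was at 8.63 and the other celecoxib arrays at 8.17 and 8.14. In STXBP3, NAPG and NSF too, celecoxib replicate 1 was the highest of the 6 arrays.

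Dense-core granule cargo and biogenesis genes belong to the compartment that CAPS proteins serve. Of 19 measured genes, 10 were higher (52.6%, against 47.9% of all genes), with a median of 0.002. Groups did not overlap in 5 (26.3%), all with higher values, against 11.1% higher and 7.95% lower over all genes. Of only 9 genes above the array median, 44.4% were higher without overlap, against 15.8% of all genes above it. Nothing is read from these counts. SCG3, a granin-family protein, stood at 0.45 ± 0.14 (SE, limma adjusted p = 0.33) at very low values, 3.88, 3.53 and 3.68 in the controls and 4.18, 3.88 and 4.38 with celecoxib. CCDC186 and TBC1D5, factors of granule maturation and endosomal sorting, stood at 0.20 ± 0.07 (0.36) and 0.23 ± 0.09 (0.41). CPD, a carboxypeptidase of the trans-Golgi network, stood at 0.18 ± 0.07 (0.40).

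Further relatives of the members were read as a list. Of 30 synaptotagmins, synaptotagmin-like, UNC13, ESYT, DOC2, rabphilin and RIM genes, 24 were lower (80%) and 6 higher, with a median of -0.08, where 52.1% of all genes were lower and their median was -0.01. Of the 30, 22 were below the array median. There 16 were lower and 6 higher, where 4380 of 7544 of all genes were lower. The 8 above the array median were all lower, where 5214 of 10873 of all genes were lower. The members of this list were chosen with results known, and nothing particular to it is read from these counts. The median stayed negative, between -0.07 and -0.06, under the 3 other normalizations. Groups did not overlap in 1 with higher (3.33%) and 4 with lower values (13.3%), against 11.1% and 7.95% of all genes. None of the 30 had an unadjusted p under 0.05. SYT14 stood at 0.35 ± 0.16 (SE, limma adjusted p = 0.45), SYT13 at -0.15 ± 0.08 (0.49), SYT16 at -0.16 ± 0.08 (0.50) and UNC13C at 0.16 ± 0.09 (0.51). SYT14, SYT16 and UNC13C were dim, with group means under 5.63.

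Ferlins, copines and a few other C2 proteins had 6 of 14 measured genes higher (42.9%, against 47.9% of all genes). Their median of -0.002 turned positive under all 3 other normalizations. Groups did not overlap in 2 with higher (14.3%) and 2 with lower values (14.3%), against 11.1% and 7.95% of all genes. MYOF, a ferlin of membrane repair and vesicle fusion, stood at -0.26 ± 0.08 (SE, limma adjusted p = 0.31), with 11.7, 11.7 and 11.6 in the controls and 11.3, 11.4 and 11.4 with celecoxib. CPNE2 (0.13 ± 0.08, adjusted p = 0.54), CPNE4 (0.12 ± 0.07, 0.54) and OTOF (-0.13 ± 0.09, 0.58) completed the 4 with the smallest p.

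**Figure D4:**
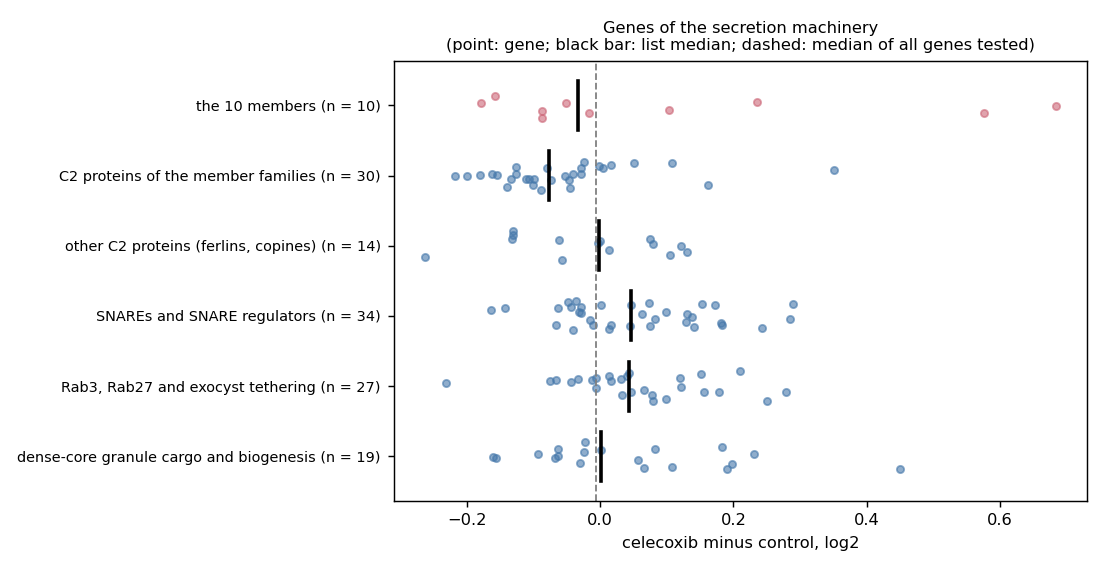
Celecoxib minus control on the log2 scale (horizontal axis) for the 10 members and the genes of 5 secretion lists, with a point per gene, a black bar at the list median and a dashed line at the median of all genes tested (-0.01). MCTP1 and CADPS2 lie beyond every gene of the 5 lists, where the highest is SCG3 at 0.45. Nothing is read from this place, since MCTP1 and CADPS2 were picked on this contrast.

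Genes whose values followed CADPS2 and MCTP1 most closely over the 6 arrays were sought among 10480 genes above the array median. Those with the highest Pearson's r with CADPS2 were ZZZ3 (0.997), UHRF2 (0.996), SLC9A2 (0.995), FBXO42 (0.995) and SEC24D (0.993). With MCTP1 they were SKIC3 (0.999), FTL (0.996), TASP1 (0.995), MMP1 (0.994) and TTN (0.994). All 10 had positive differences, from 0.09 in UHRF2 to 1.05 in MMP1. Nothing is read from this sign, which comes with picking genes that follow CADPS2 or MCTP1. The 6 arrays share their split into control and celecoxib, and r above 0.9 was reached by 327 genes for CADPS2 and 549 for MCTP1.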

How the data were processed

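RNA of AGS cells was hybridised to 6 HuGene-1_0-st arrays, 3 control and 3 celecoxib, and the labels do not say which wells each array holds. The deposited log2 values were made by the authors, per the submitters' processing notes, with Affymetrix Expression Console 1.1 and RMA, a method that corrects background, equalises the distributions of the arrays and summarises probes. Neither slides nor scan dates are named in the labels, and batches could not be examined. Precision is limited by having 6 arrays.

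Of 33297 transcript clusters, 19460 had 1 gene symbol in the platform annotation, 1754 had several and 12083 were unnamed here. The brightest cluster by mean stood for a gene, which gave 18417 genes, with no filter on signal. Entrez identifiers of 19429 clusters matched RefSeq (GRCh38.p14), and 0 symbols changed. Groups were compared with limma 3.58.1 (lmFit, eBayes; R 4.3.3), two-sided, with Benjamini-Hochberg adjustment over all 18417 genes. Differences are celecoxib minus control. The fit was tested on simulated data.

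The members and lists were chosen with earlier results of these data known. All 10 members were named, the 4 genes of smallest p in each list, and the 5 genes of highest r with CADPS2 and with MCTP1. That last search skipped symbols starting with LOC, LINC, MIR, SNOR, FAM or KIAA, olfactory receptors and open reading frames. Promoters are from RefSeq, and protein sequences were not used here. Alternatives were a mean over each gene's clusters, all clusters together, genes above the median or without the dimmest 20%, median centring, repeated quantile normalization, cyclic loess, an intensity trend in the variance prior (also with robust estimation), weighted arrays, a replicate block and each array left out. A covariate for small RNA level was added with earlier results seen. Plots used matplotlib 3.10.9 (Python 3.11.15).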

Additional observations from a re-analysis of the deposited data

How the results depend on the processing

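Limma called 26 of 18417 genes, 14 higher and 12 lower, and this count moved with nearly every choice. It was 76 among genes above the array median, 59 without the dimmest 20%, 69 with an intensity trend in the prior, 69 with a robust prior added and 177 with array weights. Repeated quantile normalization called 44 (18 higher, 26 lower) and cyclic loess 42 (16 higher, 26 lower). It was 0 with all 33297 clusters tested together (2551 at an unadjusted p under 0.05), 1 with small RNA level as a covariate, and 0 to 5 without 1 array at a time (1293 to 2353 at an unadjusted p under 0.05). Some of these fits had fewer arrays or more clusters, and the cause of the changes in count was not tested. CADPS2 and MCTP1 were positive in all 18 alternatives and called in 9 of them. Several alternatives change only the variance or the set of genes and leave both differences as they were. Where 1 array was left out, the sign was fixed, since the groups of both genes do not overlap. Nothing is read from the shared sign.

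With the replicate number as a block, limma called 0 genes (2448 at an unadjusted p under 0.05), and CADPS2 and MCTP1 had adjusted p of 0.11 and 0.094. Same-numbered arrays correlated in their deviations by -0.02, 0.49 and 0.01, and not every array was closest to its own number, so the numbers were not treated as pairs. No gene of the 5 lists was called in any of the 18 alternatives.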
